A study of Mus musculus with 86 samples.

Results

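This is an account of gene expression in the soleus of mice given JGT03 at 400 mg/kg on top of dexamethasone (DEX), against mice given DEX alone. The comparison rests on 9 of the 86 RNA-seq libraries of a study of leg muscle, 5 from JGT03 400 mg/kg mice and 4 from DEX mice, taken by the treatment and tissue in the sample labels. All were male C57BL/6N mice, 10 weeks old when supplied, and both groups were injected intraperitoneally with 25 mg/kg DEX, a synthetic glucocorticoid, on each of 10 days. The JGT03 mice were also gavaged 30 min after each injection with a hot-water extract of peony root and liquorice root in a ratio of 1:1, suspended in 0.5% carboxymethylcellulose. The DEX mice were gavaged with buffer lacking the cellulose, so that the extract cannot be told apart from its vehicle. Non-treated mice, 5 in number, had buffer by both routes. They, 5 mice on JGT03 at 100 mg/kg and 4 on the 1:2 extract JGT04 at 400 mg/kg, both with DEX, serve as further points of comparison, as does the gastrocnemius of the same treatment groups (5 JGT03 400 mg/kg and 4 DEX libraries). The protocol speaks of 5 groups of mice while the samples form 9, and 1 batch is named for all.

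The soleus is a postural muscle of mainly slow, oxidative fibres. Glucocorticoids enter muscle cells, bind their receptor and switch on genes of protein breakdown, among them the ubiquitin ligases Fbxo32 and Trim63 and the regulators Foxo1, Foxo3 and Klf15, while they restrain insulin and growth factor signalling and inflammatory genes. Fast fibres waste more readily under glucocorticoids than slow ones. Peony and liquorice are combined in Jakyak-gamcho-tang (JGT), a traditional remedy for muscle cramp, and glycyrrhizin and its aglycone from liquorice are known to slow the breakdown of glucocorticoids.

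Total expected counts were 22209345 to 28658136 in the JGT03 400 mg/kg libraries and 18751732 to 25992422 in the DEX libraries, and the 10 highest genes took 26.4% to 33% of them. Levels are in CPM, a gene's counts as a rate of the TMM-adjusted library total, differences are log2 fold changes ± standard error, and p-values are from edgeR's quasi-likelihood test, adjusted by Benjamini-Hochberg over all genes of the fit. A gene is called when its adjusted p is under 0.05. The markers of skeletal myofibres fitted the label, with a summed level of 90554, 98415, 81414, 93648 and 88256 CPM in JGT03 400 mg/kg mice 1 to 5 and 83614, 85027, 76409.9 and 64752 CPM in DEX mice 1 to 4. DEX mouse 4 was the lowest of these and stood apart in its whole profile. Its median correlation with the other DEX libraries over log2 CPM was 0.965, where the other 8 libraries had at least 0.991 with their own group. JGT03 mouse 3 was as close to the DEX libraries (median 0.991) as to its own group (0.991). DEX mouse 2 was likewise as close to the JGT03 400 mg/kg libraries (median 0.992) as to its own group (0.991). A further division is not in the labels. Earlier results of these data placed breaks in the listed order of the libraries by the level of Cebpb, and by these breaks all soleus DEX and non-treated libraries are in one set and all soleus JGT03 and JGT04 libraries in the next, so that set and treatment can be told apart only through 2 and 2 libraries of another group, JGT02 400 mg/kg, that span the break.

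Soleus of JGT03 400 mg/kg mice showed small rises in genes of fuel use and protein turnover and larger falls in genes of nerve sheath, vessels, matrix and the immediate-early response. Over all genes, both rises and falls were fewer when DEX mouse 4 was left out, though proteasome subunits called higher went from 11 to 14. Of 14696 genes tested, 1675 (11.4%) were higher and 2360 (16.1%) lower in JGT03 400 mg/kg than in DEX soleus. In 834 of the higher and 818 of the lower genes the 5 JGT03 libraries did not overlap the 4 DEX libraries. Over all genes tested, called or not, every JGT03 library was above every DEX library in 916 genes (6.23%) and below it in 901 (6.13%). The rises had a median log2 of 0.31 among the genes called, against -0.56 among the falls, while the median over all genes tested was -0.03. Without DEX mouse 4, 1055 genes (7.13%) were higher and 1227 (8.3%) lower, and 1943 genes were called in both fits. When only the 9 libraries were fitted, without the other groups to estimate the spread, 436 genes were called, and 898 when DEX mouse 4 was also left out. Counts of list members below are from the fit of all groups and were far smaller with the 9 libraries alone. There 1 of 40 fatty acid use genes rose and 1 fell, and 2 of 33 proteasome subunits rose. Of 76 oxidative phosphorylation genes 0 rose, and 4 of 41 matrix genes fell (12 when DEX mouse 4 was also left out). With a term for the set none passed, the smallest adjusted p being 0.0784, though 1268 had an unadjusted p under 0.05. Of the 4035 genes called without the term, 90.6% kept their sign with it, while their median standard error was 0.19 with the term, against 0.11 without it. The median log2 of the higher genes was 0.18 with the term and that of the lower genes -0.32. Several list medians changed sign with the term. Oxidative phosphorylation went from 0.17 to -0.15, slow-fibre genes from 0.16 to -0.04, and fatty acid and triglyceride synthesis from -0.32 to 0.15. Adipocyte markers went from -0.98 to 0.47 and acute-phase genes from -1.40 to 0.27. Other medians kept their sign, such as immediate-early genes (-0.85) and fatty acid uptake and oxidation (0.21).

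**Figure D1:**
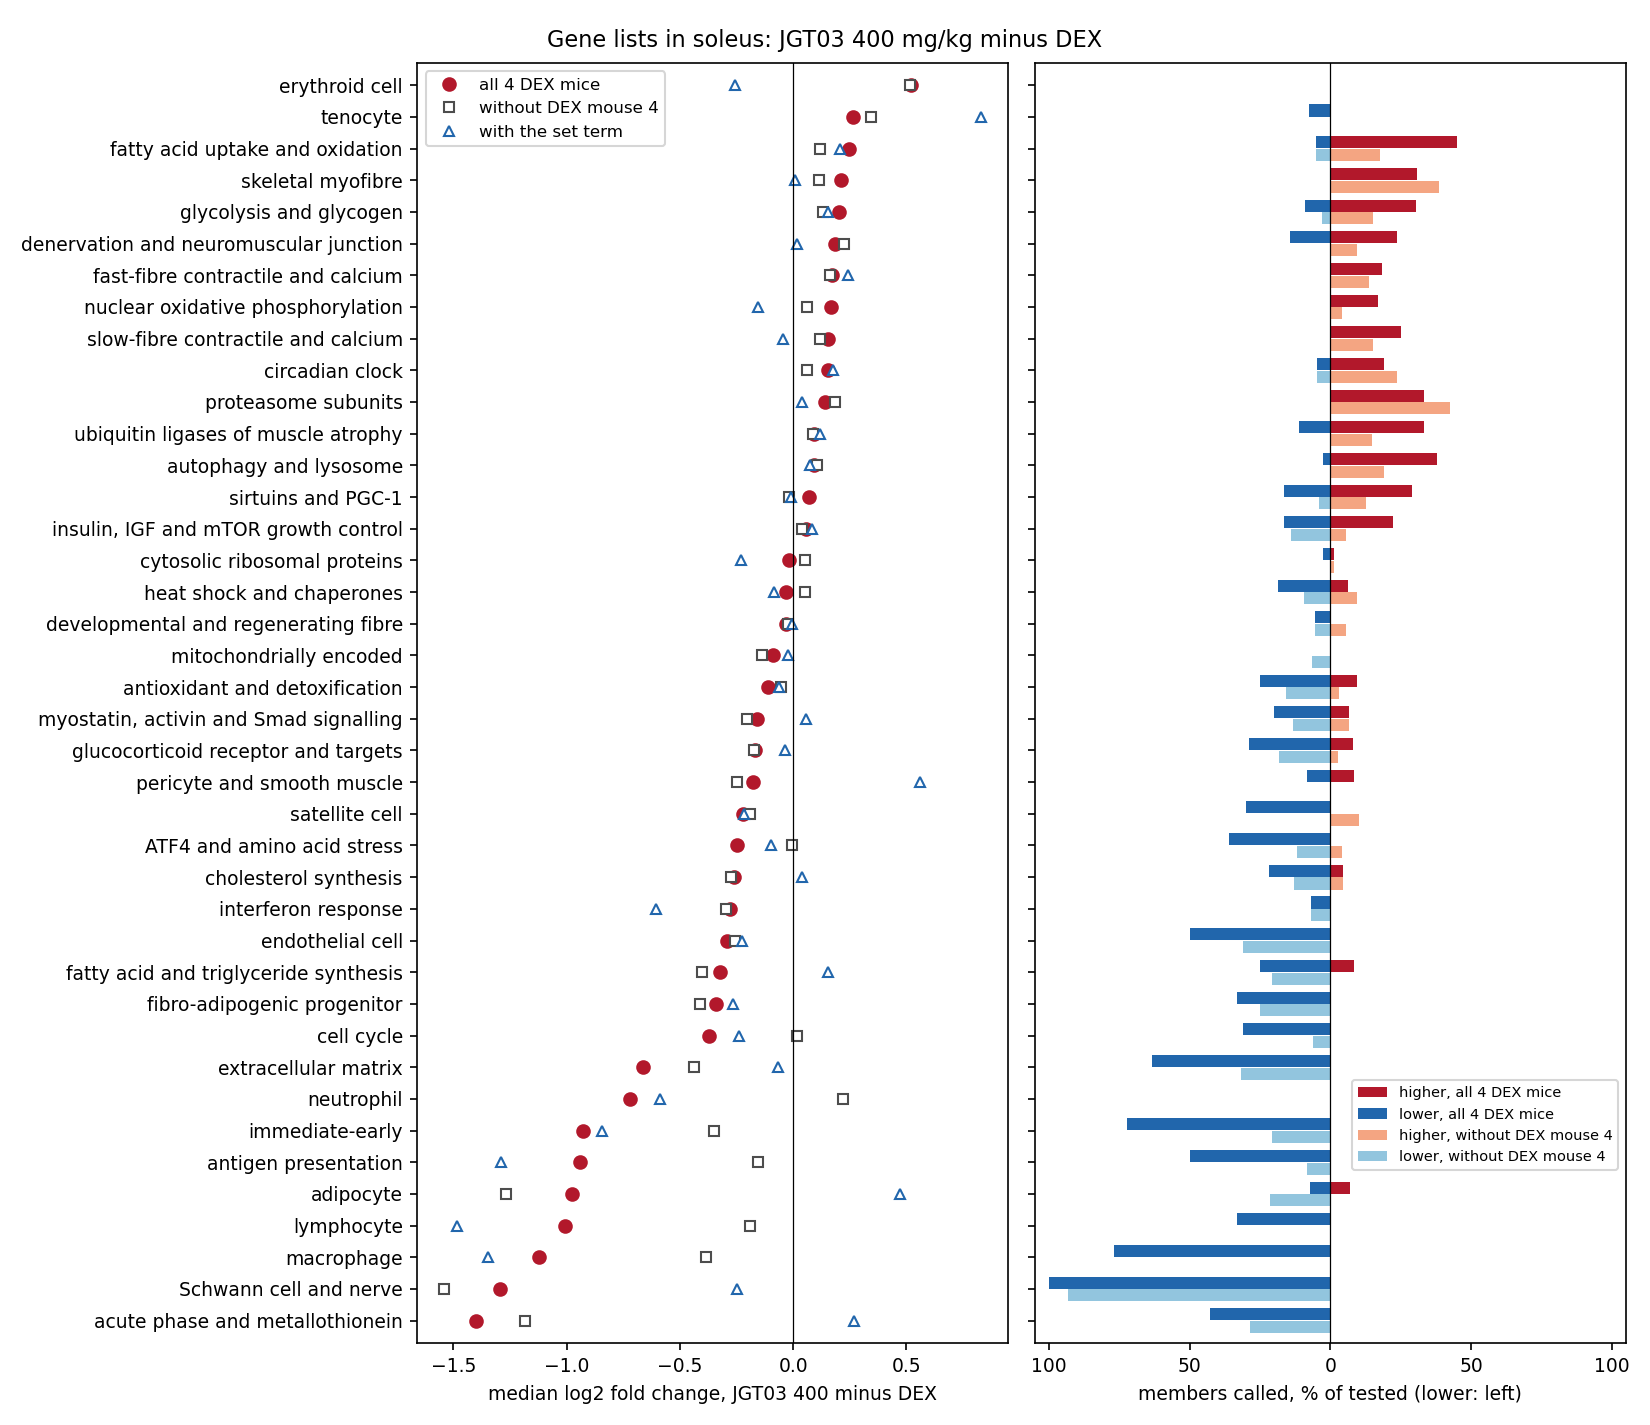
Median log2 fold change of each of 40 gene lists in soleus, JGT03 400 mg/kg minus DEX (left, x axis), from all 4 DEX mice, without DEX mouse 4 and with the set term, and the percentage of tested members called (right, x axis; lower to the left, higher to the right). Schwann cell markers are lower with and without DEX mouse 4, macrophage markers are called with that mouse and not without it, and proteasome subunits are higher in both.

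Among the largest rises of genes at 5 CPM or more without overlap, Lars2, the mitochondrial leucyl-tRNA synthetase (chr9:123366927-123462666), led. It had 269, 229, 187, 337 and 139.8 CPM in JGT03 400 mg/kg mice, against 68.6, 64.3, 59.7 and 48.4 CPM in DEX mice, so that the lowest JGT03 library was above every DEX library (log2 1.95 ± 0.46, adjusted p = 0.00226). Lars2 was also spread widely over the JGT03 100 mg/kg mice, at 254, 109, 102, 744 and 444 CPM, against 61.9 ± 8.07 CPM (SD, n = 5) in non-treated mice, and with the set term its difference was 1.03. Esrrg, the nuclear receptor ERR gamma that drives oxidative metabolism of muscle (chr1:187608791-188214885), reached 95.4, 76.7, 96.4, 69.8 and 85.4 CPM in JGT03 400 mg/kg mice and 57.6, 58.2, 54.3 and 42 CPM in DEX mice (log2 0.68 ± 0.12, adjusted p = 0.000223). This gene kept most of its difference with the set term, at 0.63 ± 0.21, and its level was 83.3 ± 9.72 CPM (SD, n = 5) in non-treated mice. Tmem117, a membrane protein gene, had 17.9, 16.1, 16.4, 15.8 and 17.3 CPM in JGT03 400 mg/kg mice and 13.2, 11.1, 9.91 and 9.63 CPM in DEX mice, a narrow range in both groups (log2 0.61 ± 0.09, adjusted p = 2.29e-05). Ctnna3, which encodes an alpha-catenin of cell junctions in muscle, stood at 20.7, 21.4, 17.7, 16.2 and 19.1 CPM in JGT03 400 mg/kg mice, against 12.8, 13.3, 12.8 and 11 CPM in DEX mice (log2 0.61 ± 0.11, adjusted p = 0.000284). The others of the 12 largest rises were Mettl21c, a lysine methyltransferase of muscle (log2 1.02), Gpam, which starts triglyceride synthesis (0.79), Pik3ip1, an inhibitor of PI3 kinase (0.69), Asb18 (0.68), the potassium channel gene Kcnn3 (0.66), Tmem53 (0.64), Pcp4l1 (0.63) and Fabp3-ps1 (0.72), a pseudogene that shares 75% of its 31-base words with Fabp3, whose reads it may hold. Of the 12, Mettl21c and Gpam were no longer called without DEX mouse 4, at adjusted p = 0.0562 and 0.115, and Gpam was also lost without DEX mouse 3 or JGT03 mouse 1.

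Of the 40 lists, fatty acid use had the highest share of members called higher. Of 40 genes of fatty acid uptake and oxidation, 18 rose and 2 fell, with a median log2 of 0.25. Slc25a20, which carries acylcarnitines into mitochondria, had 142, 138, 119.6, 144 and 133 CPM in JGT03 400 mg/kg mice and 104, 108, 102 and 76.9 CPM in DEX mice (log2 0.47 ± 0.09, adjusted p = 0.000375). Hadhb, a subunit of the trifunctional enzyme of beta-oxidation, followed with 652, 654, 572, 668 and 676 CPM in JGT03 400 mg/kg mice, against 489, 536, 502 and 347 CPM in DEX mice (log2 0.46 ± 0.10, adjusted p = 0.00103). In both genes DEX mouse 4 was the lowest library and the groups did not overlap. The fallers were Cpt1a, the carnitine palmitoyltransferase of liver type, at log2 -0.72 ± 0.16 without overlap, and Angptl4, an inhibitor of lipoprotein lipase, at -2.03 ± 0.60 with overlapping groups and a call that was lost without DEX mouse 4. Pdk4, which blocks glucose oxidation, varied widely, with 55.7, 119, 100.5, 48.1 and 52.4 CPM in JGT03 400 mg/kg mice and 64.1, 111, 190.4 and 206 CPM in DEX mice, and did not pass (adjusted p = 0.0576). Without DEX mouse 4, 7 members rose and 2 fell, at a median of 0.12, while without JGT03 mouse 3, 20 rose and 7 fell and without DEX mouse 2, 18 and 4.

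Of 33 genes of glycolysis and glycogen, 10 rose and 3 fell (median 0.20). Glycogen synthase Gys1 had 541, 515, 424, 533 and 475 CPM in JGT03 400 mg/kg mice and 401, 355, 315 and 251 CPM in DEX mice (log2 0.59 ± 0.11, adjusted p = 0.000408). Glycogenin Gyg, the primer of glycogen, had 653, 597, 578, 602 and 626 CPM in JGT03 400 mg/kg mice and 482, 521, 409.5 and 311 CPM in DEX mice (log2 0.50 ± 0.10, adjusted p = 0.000549). Both were lowest in DEX mouse 4, and the other 3 DEX libraries still lay below all JGT03 libraries. Hexokinase Hk1, the form found in most tissues, fell at log2 -0.53 ± 0.11 (adjusted p = 0.000604). Nuclear genes of oxidative phosphorylation gave 13 rises and 0 falls among 76, where 11.4% of all genes rose. The succinate dehydrogenase subunits Sdhc (0.47 ± 0.10) and Sdhd (0.39 ± 0.10) led. Without DEX mouse 4, 5 glycolysis and glycogen genes and 3 oxidative phosphorylation genes were higher, and of the second list 8 without JGT03 mouse 4. Over all genes 7.13% were higher without DEX mouse 4, a larger share than in the oxidative phosphorylation list. None of 15 mitochondrially encoded genes passed by edgeR. The mitochondrial transcription factor Tfam rose at 0.28 ± 0.06 (adjusted p = 0.00055), while Ppargc1a, the master coactivator of mitochondrial genes, gave -0.28 with overlapping groups (adjusted p = 0.194).

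Several genes of protein breakdown were slightly higher in JGT03 400 mg/kg soleus. Of 33 proteasome subunits 11 rose and none fell (median 0.14), and without DEX mouse 4 14 rose. Psmb7, a catalytic subunit of the core, had 195, 229, 181, 207 and 195 CPM in JGT03 400 mg/kg mice and 145, 163, 138 and 132 CPM in DEX mice (log2 0.48 ± 0.09, adjusted p = 0.000398). Psmd2, a scaffold of the regulatory particle, had 229, 242, 209, 226 and 223 CPM in JGT03 400 mg/kg mice and 193, 183, 157 and 180.4 CPM in DEX mice (log2 0.34 ± 0.06, adjusted p = 0.000398). The list's count was 7 without DEX mouse 3 or without JGT03 mouse 4, and its median with the set term was 0.04. Of 37 autophagy and lysosome genes 14 rose and 1 fell, 7 and 0 without DEX mouse 4. Wipi1, which acts in the forming autophagosome, was at 92.3, 98.2, 86.7, 89 and 91.2 CPM in JGT03 400 mg/kg mice and 68, 84.3, 63.8 and 68.7 CPM in DEX mice (log2 0.36 ± 0.06, adjusted p = 0.000168), and Bnip3, a receptor for mitochondrial autophagy, gave 0.58 ± 0.11 without overlap.

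Among 27 ubiquitin ligases and partners linked to atrophy, 9 rose and 3 fell, and 4 and 0 did so without DEX mouse 4 and 8 and 5 without DEX mouse 2. Trim55, a sarcomere-bound ligase of the MuRF family, had 33.9, 28.1, 23.3, 31.2 and 29.7 CPM in JGT03 400 mg/kg mice and 24.8, 21.1, 18.1 and 21.9 CPM in DEX mice, with mouse 3 of JGT03 and mouse 1 of DEX overlapping (log2 0.45 ± 0.11, adjusted p = 0.00246). Nedd4 had 318, 279, 305, 291 and 322 CPM in JGT03 400 mg/kg mice and 261, 265, 259 and 231 CPM in DEX mice, without overlap (log2 0.25 ± 0.07, adjusted p = 0.00576). Fbxo32 (atrogin-1) showed 219, 211, 242, 225 and 233 CPM in JGT03 400 mg/kg mice, against 182, 229, 137 and 159.7 CPM in DEX mice. It passed narrowly (log2 0.35 ± 0.14, adjusted p = 0.0492), overlapped through DEX mouse 2, and lost its call when any 1 library other than DEX mouse 2 was left out. Trim63 (MuRF1), the other classical atrophy ligase, had 99, 98.8, 92.4, 101 and 89.7 CPM in JGT03 400 mg/kg mice and 97.9, 75.9, 94.6 and 122 CPM in DEX mice and did not pass (log2 -0.02 ± 0.09, adjusted p = 0.883). Both ligases were higher in non-treated soleus, at 349 ± 108 and 137 ± 14.7 CPM (SD, n = 5). Foxo3 rose (log2 0.29 ± 0.10, adjusted p = 0.03) and Foxo1 fell (log2 -0.25 ± 0.08, adjusted p = 0.0199), both with overlap, and leaving out some single libraries ended either call. Leaving out DEX mouse 3 gave adjusted p = 0.089 for Foxo3 and 0.167 for Foxo1.

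**Figure D2:**
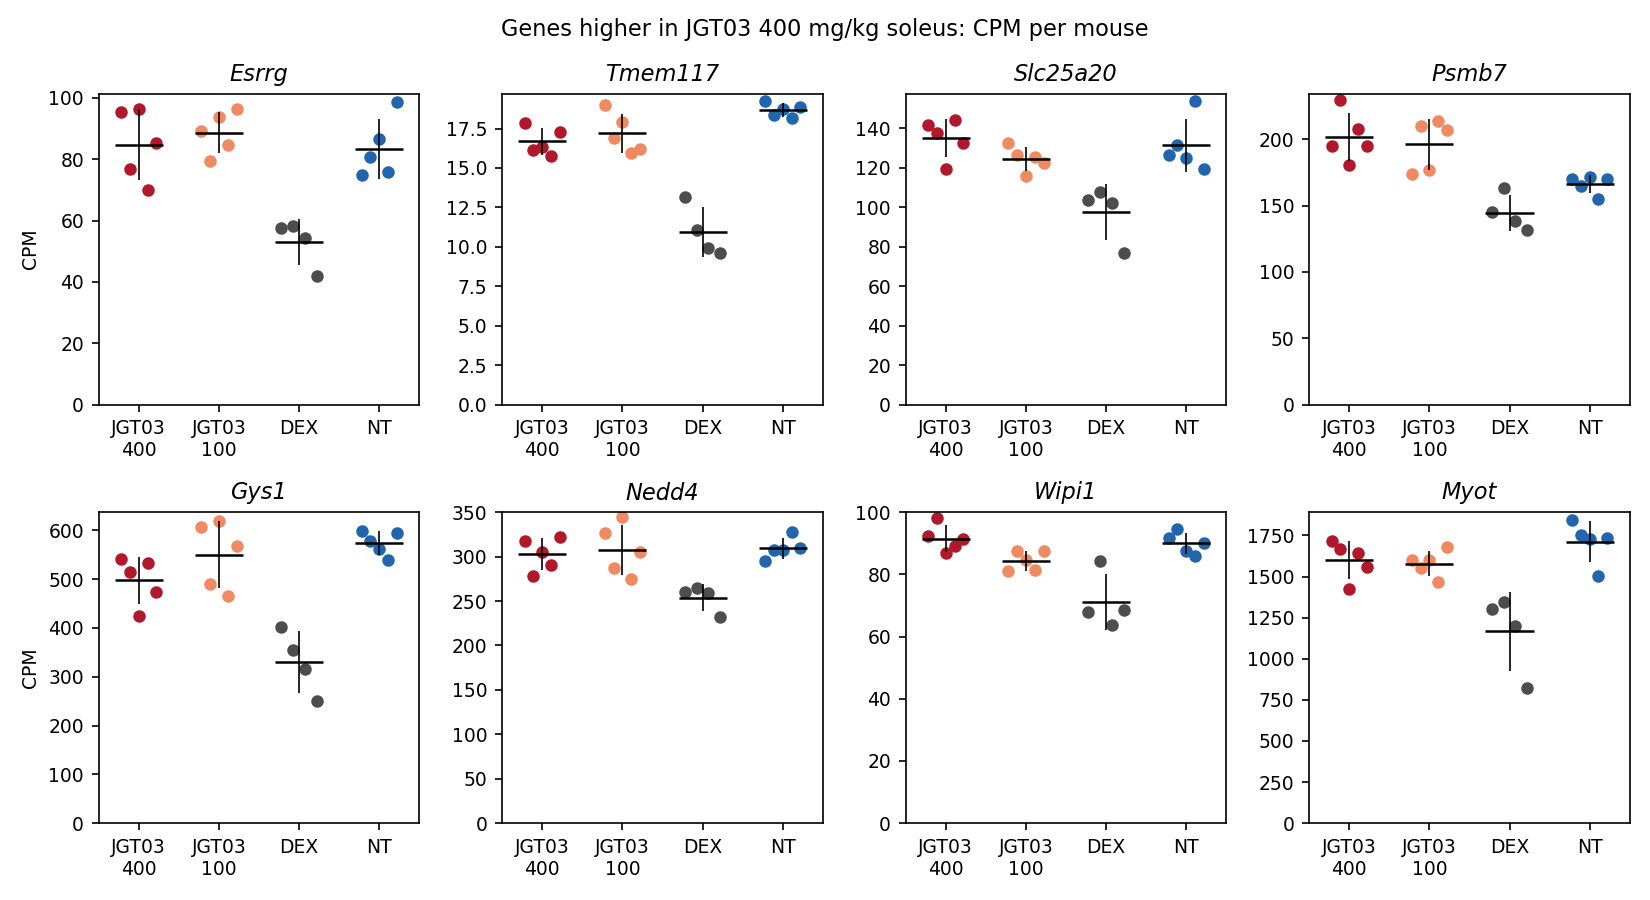
CPM (y axis, from 0) of 8 genes in soleus of JGT03 400 mg/kg, JGT03 100 mg/kg, DEX and non-treated (NT) mice (x axis). Points are mice in label order from left to right, lines the mean and bars the SD. In all 8 genes the JGT03 400 mg/kg points lie above the DEX points, and DEX mouse 4, the rightmost DEX point, is the lowest of the 4 in all but Wipi1.

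Fibre type genes showed small rises on both sides. Of 20 slow-fibre genes 5 rose and of 22 fast-fibre genes 4 rose, with no falls, at medians of 0.16 and 0.17. Over all genes 11.4% rose. Of the slow-fibre genes 3 rose without DEX mouse 3 (where 1 fell), DEX mouse 4, JGT03 mouse 1 or JGT03 mouse 5. Casq2, the calcium-binding protein of the slow sarcoplasmic reticulum, gave 0.63 ± 0.13. The myosin heavy chain genes did not pass: Myh7 (slow) gave 0.08 ± 0.16, Myh2 (IIa) 0.15 ± 0.15, Myh1 (IIx) 0.16 ± 0.26 and Myh4 (IIb) 0.08 ± 1.12. They share between 27.9% and 42.9% of their 31-base words with a sister gene. In the Z-disc Myot had 1716, 1669, 1421, 1645 and 1559.5 CPM in JGT03 400 mg/kg mice, against 1301, 1343, 1201 and 820.3 CPM in DEX mice (log2 0.46 ± 0.09, adjusted p = 0.000623), and Ldb3, its neighbour there, gave 0.51 ± 0.11. The small heat shock protein gene Hspb6, abundant in slow muscle, rose at 0.48 ± 0.11 without overlap.

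Genes of growth signalling were called in both directions, in numbers that rested on single libraries. Of 36 genes of insulin, IGF and mTOR control 8 rose and 6 fell, a share of falls near the 16.1% of all genes. The counts were 2 and 5 without DEX mouse 4, 1 and 2 without DEX mouse 3, 10 and 3 without DEX mouse 1, and 3 and 3, 7 and 3, and 2 and 4 without JGT03 mouse 1, mouse 4 and mouse 5. The kinase gene Mtor had 43.3, 38.2, 41.9, 37.8 and 43.6 CPM in JGT03 400 mg/kg mice and 33.7, 32.4, 32 and 31 CPM in DEX mice (log2 0.34 ± 0.06, adjusted p = 0.000247). Igf1, the main muscle growth factor, had 8.28, 11, 22.7, 11.3 and 8.29 CPM in JGT03 400 mg/kg mice and 24.6, 19, 26.9 and 13.5 CPM in DEX mice (log2 -0.76 ± 0.26, adjusted p = 0.029), so JGT03 mouse 3 lay among the DEX values, and its call was lost when any of 6 single libraries was left out. With the set term Igf1 changed sign, to 0.19. Igfbp5, a binding protein for IGF, fell at -0.63 ± 0.17 and lost its call without DEX mouse 3 (adjusted p = 0.058). In the myostatin and Smad list 2 of 30 rose and 6 fell (1 and 4 without DEX mouse 1 or JGT03 mouse 4, 1 and 2 without DEX mouse 3 or JGT03 mouse 5, 1 and 6 without JGT03 mouse 1), among the fallers Tgfb1 (-0.69 ± 0.15) and the BMP target Id1 (-1.08 ± 0.33). Id1 lost its call without DEX mouse 3. Mstn, myostatin itself, lay between 1.1 and 3.7 CPM in JGT03 400 mg/kg mice and between 1.18 and 2.4 CPM in DEX mice and did not pass (log2 0.19 ± 0.47, adjusted p = 0.793).

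The 12 largest falls without overlap were of genes higher in each DEX mouse than in any JGT03 mouse, but 7 of them were raised in DEX mouse 4 above all. Adamts9, a matrix protease, had 1.45, 1.48, 2.32, 1.41 and 1.3 CPM in JGT03 400 mg/kg mice and 3.73, 4.08, 4.34 and 26.8 CPM in DEX mice (log2 -2.61 ± 0.37, adjusted p = 2.29e-05), and still differed without DEX mouse 4 (log2 -1.34 ± 0.22, adjusted p = 0.000258). Il4ra, the receptor for interleukin 4, had 7.58, 7.59, 6.8, 6.4 and 7.31 CPM in JGT03 400 mg/kg mice and 9.25, 7.82, 11.6 and 62.6 CPM in DEX mice. Its log2 was -1.69 ± 0.31 with DEX mouse 4 and -0.42 ± 0.12 without it. Gadd45g, a growth arrest gene, passed with DEX mouse 4 at -1.49 ± 0.33 but not without it (log2 -0.30 ± 0.19, adjusted p = 0.281), and the actin-capping gene Capg did not pass without it either (log2 -1.29 with it and -0.50 without, adjusted p = 0.0515). Grrp1, Cebpd (a glucocorticoid-responsive transcription factor) and Anxa2 (a membrane repair annexin) fell at -1.30, -1.29 and -1.23, and at -0.50, -0.64 and -0.66 without DEX mouse 4, where they were still called.

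The other 5 falls kept more of their size without that mouse. Otud1, a deubiquitinase, had 29.4, 40.2, 51.1, 32.6 and 46 CPM in JGT03 400 mg/kg mice and 91.4, 53.1, 136 and 169 CPM in DEX mice, with DEX mouse 2 closest to the JGT03 range (log2 -1.50 ± 0.30, adjusted p = 0.000563; -1.23 without DEX mouse 4). Edn1, the vasoconstrictor endothelin 1 (chr13:42301476-42307990), had 3.28, 4.01, 3.92, 4.31 and 3.68 CPM in JGT03 400 mg/kg mice and 5.87, 5.84, 11.3 and 11.2 CPM in DEX mice (log2 -1.16 ± 0.22, adjusted p = 0.000439), and Mall, a lipid raft protein gene, gave -1.30 ± 0.19. Without DEX mouse 4 these were -1.004 and -1.08. Cebpb, a transcription factor of the glucocorticoid and stress response (chr2:167688915-167690418), had 21.6, 19.6, 18.3, 11.4 and 10.8 CPM in JGT03 400 mg/kg mice and 35.8, 32.6, 37.7 and 46.3 CPM in DEX mice (log2 -1.22 ± 0.22, adjusted p = 0.000233). This is the gene by which the sets of libraries were drawn, and with the set term its difference was -0.26 ± 0.35. Its level in non-treated soleus, 50.3 ± 6.46 CPM (SD, n = 5), was above both. Exons of Tmem189 lie opposite those of Cebpb, and reads of the pair would be mixed in a count that takes no account of strand.

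Immediate-early genes, the transcription factors and feedback regulators switched on soon after a stimulus, were widely lower. Of 29 members 21 fell and none rose, at a median of -0.93, and the summed level was 522, 593, 641, 525 and 573 CPM in JGT03 400 mg/kg mice and 681, 597, 973 and 1462 CPM in DEX mice. DEX mice 3 and 4 were far above the rest, DEX mouse 2 was inside the JGT03 range, and non-treated mice had 519, 567, 568, 571 and 696 CPM. Without DEX mouse 4, 6 of 29 fell and the median was -0.35. With only the 9 libraries fitted, 2 of 28 fell. Klf6 (chr13:5861482-5870394) was called either way, with 20.7, 25.4, 28.8, 24.5 and 24.3 CPM in JGT03 400 mg/kg mice and 35.6, 33.7, 46.6 and 71.8 CPM in DEX mice (log2 -0.93 ± 0.14, adjusted p = 3.38e-05; -0.64 without DEX mouse 4 and -0.75 with the set term). Klf4, a related zinc finger factor, had 11.1, 11.3, 16.6, 11 and 12.2 CPM in JGT03 400 mg/kg mice and 17.8, 18.6, 55.5 and 23.1 CPM in DEX mice, led by DEX mouse 3 (log2 -1.21 ± 0.22, adjusted p = 0.00024; -1.30 without DEX mouse 4).

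Promoters of 21 of the 29 immediate-early genes were in the RefSeq table (GRCm38.p6), each reaching from 250 bases before the start of the gene to 50 after it. The CArG box, the site of serum response factor, was found on either strand in 2 of these 21, Egr2 and Zfp36, in 1.62% of the 10408 genes tested that have a promoter in the table and in 1.81% of all its 27025 genes. The cyclic AMP response element TGACGTCA was found in 3 of the 21, among them Maff, in 3.42% of the genes tested and in 2.03% of all in the table. The letters of one motif cannot overlap those of the other. Of the 15 genes that fell and were in the table, 2 held the first motif (13.3%) and 1 the second (6.67%). The 250 bases before the start are shown for these 3, 5′ to 3′ on the gene's strand and with the motif in capitals, to show where the letters searched for lie.
Egr2 (chr10:67537619-67537868, plus strand, 1 of 5 listed starts): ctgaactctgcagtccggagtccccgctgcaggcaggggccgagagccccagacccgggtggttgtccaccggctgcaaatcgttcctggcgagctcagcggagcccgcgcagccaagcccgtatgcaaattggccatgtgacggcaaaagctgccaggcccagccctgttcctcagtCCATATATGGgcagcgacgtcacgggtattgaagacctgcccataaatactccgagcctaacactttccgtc
Zfp36 (chr7:28379229-28379478, minus strand): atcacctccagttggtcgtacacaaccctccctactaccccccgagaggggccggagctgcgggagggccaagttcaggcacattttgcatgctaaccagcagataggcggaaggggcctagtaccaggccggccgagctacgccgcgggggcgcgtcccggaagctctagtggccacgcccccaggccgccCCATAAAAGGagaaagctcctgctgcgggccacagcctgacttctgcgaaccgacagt
Maff (chr15:79347270-79347519, plus strand, 1 of 3 listed starts): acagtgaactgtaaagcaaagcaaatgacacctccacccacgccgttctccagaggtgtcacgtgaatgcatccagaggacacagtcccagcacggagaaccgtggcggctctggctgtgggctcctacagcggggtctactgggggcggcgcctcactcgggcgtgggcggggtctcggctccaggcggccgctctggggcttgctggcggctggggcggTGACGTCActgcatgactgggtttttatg
Egr2, an early growth response factor that also controls myelin genes, had 0.916, 1.14, 1.21, 1.18 and 1.17 CPM in JGT03 400 mg/kg mice and 2.39, 0.714, 2.98 and 3.21 CPM in DEX mice (log2 -1.05 ± 0.32, adjusted p = 0.0124), so DEX mouse 2 was the lowest library of all. Egr2 is also a member of the Schwann cell list. Zfp36 (tristetraprolin), which destabilises cytokine mRNAs, had 12.4, 14.6, 16.5, 9.75 and 13 CPM in JGT03 400 mg/kg mice and 13.3, 16.3, 21.8 and 51.6 CPM in DEX mice (log2 -0.96 ± 0.23, adjusted p = 0.00257), and Maff, a small Maf factor, 5.43, 4.6, 5.95, 4.72 and 6.01 CPM in JGT03 400 mg/kg mice and 5.37, 6.64, 9.41 and 12.3 CPM in DEX mice (log2 -0.67 ± 0.15, adjusted p = 0.00184). Maff alone of the 3 passed without DEX mouse 4 (adjusted p = 0.0437; Egr2 0.0811, Zfp36 0.155), and Egr2 was also lost without DEX mouse 3. The 3 were chosen for their motifs after their values were seen.

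Markers of Schwann cells, which wrap motor axons in myelin, were the list with the highest share of calls. All 15 were lower in JGT03 400 mg/kg soleus, at a median of -1.29. Their summed level was 138, 191, 189, 203 and 176 CPM in JGT03 400 mg/kg mice and 986, 191, 849.6 and 132 CPM in DEX mice, so that DEX mice 1 and 3 were high and DEX mice 2 and 4 lay inside or below the JGT03 range. Non-treated mice had 233, 138, 139, 145 and 188 CPM. Mbp, myelin basic protein, had 21, 27.4, 27.8, 33.3 and 25.9 CPM in JGT03 400 mg/kg mice and 158, 29.5, 151 and 19.3 CPM in DEX mice (log2 -1.72 ± 0.48, adjusted p = 0.00747). Mag and Gldn, which act at the contact of myelin and axon and at the node, fell at -1.59 ± 0.42 and -1.29 ± 0.32. In Gldn alone of these 3 the groups did not overlap, by a margin between 1.32 CPM in JGT03 mouse 3 and 1.34 CPM in DEX mouse 2. Without DEX mouse 1, 5 of 15 were called, without DEX mouse 3, 9, and without DEX mouse 4, 14. With only the 9 libraries fitted 1 was called, and 13 when DEX mouse 4 was also left out. With the set term the median was -0.25 and Gldn changed sign (0.20). In bulk tissue, fewer cells of a type and less RNA per cell cannot be told apart, and the part of nerve in the dissected tissue was not tested.

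Genes of the extracellular matrix and of vessels fell, and the falls did not rest on DEX mouse 4 alone. Of 41 matrix genes 26 fell and none rose (median -0.66), and without DEX mouse 4 13 fell (median -0.44). The summed level was 1488, 1628, 2011, 1654 and 1478 CPM in JGT03 400 mg/kg mice and 2261, 1923, 2402 and 2901 CPM in DEX mice, and JGT03 mouse 3 was above DEX mouse 2. Serpinh1, the collagen chaperone, had 53.3, 56.1, 71.7, 61.2 and 56.6 CPM in JGT03 400 mg/kg mice and 79.6, 70.3, 113 and 144 CPM in DEX mice, JGT03 mouse 3 being just above DEX mouse 2 (log2 -0.77 ± 0.13, adjusted p = 0.000129). Spp1 (osteopontin) had 0.881, 2.66, 1.82, 1.49 and 0.897 CPM in JGT03 400 mg/kg mice and 7.41, 1.13, 9.99 and 23.3 CPM in DEX mice, with DEX mouse 2 inside the JGT03 range (log2 -2.76 ± 0.52, adjusted p = 0.000372). With the set term the matrix median was -0.07. Of 16 endothelial markers 8 fell and none rose (median -0.29), 5 without DEX mouse 4, 4 without DEX mouse 3 and 5 without JGT03 mouse 1. Their summed level did not overlap, with 723, 749, 704, 734 and 738 CPM in JGT03 400 mg/kg mice and 796, 946, 1045 and 906 CPM in DEX mice. Eng (endoglin), a TGF beta co-receptor of endothelium, had 87.6, 85.1, 71.4, 76.3 and 75 CPM in JGT03 400 mg/kg mice and 109, 119.9, 181 and 134 CPM in DEX mice (log2 -0.78 ± 0.12, adjusted p = 4.37e-05; -0.79 without DEX mouse 4, -0.63 with the set term). Pecam1, the junction protein CD31, gave -0.44 ± 0.10 without overlap.

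Macrophage and antigen presentation genes were called lower only with DEX mouse 4 in the fit, but for 1 gene. Of 13 macrophage markers tested 10 fell with DEX mouse 4 and 0 without it, and 6 fell without JGT03 mouse 2 or 4. The summed level was 37.1, 47.2, 97.4, 48.7 and 56.2 CPM in JGT03 400 mg/kg mice and 86.1, 55.3, 76.8 and 406 CPM in DEX mice. Ccl2, which attracts monocytes, had 0.211, 0.211, 0.748, 0.152 and 0.0897 CPM in JGT03 400 mg/kg mice and 0.944, 0.378, 0.697 and 29 CPM in DEX mice, and gave -4.72 ± 0.86 with DEX mouse 4 but adjusted p = 0.249 without it. The Fc receptor gene Fcgr1 went the same way (-3.08 ± 0.70; adjusted p = 0.722 without it), as did Runx1 (-2.54 ± 0.52; adjusted p = 0.613), which denervated fibres are known to express. The part that immune cells in DEX mouse 4 have in these values was not tested. The class II genes Cd74, H2-Ab1 and H2-Aa passed at -1.94, -1.99 and -1.62 and changed sign without DEX mouse 4, to 0.18, 0.45 and 0.55. Their calls were also lost without JGT03 mouse 1, 2 or 4, and those of Cd74 and H2-Aa without JGT03 mouse 5. Of 12 genes of antigen presentation 6 fell, 1 without DEX mouse 4, 2 without JGT03 mouse 1, 2 or 4 and 3 without JGT03 mouse 5.

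The acute-phase list, 6 of whose 14 tested members fell (median -1.40), was summed to 120.4, 209, 530.3, 165 and 137 CPM in JGT03 400 mg/kg mice and 632, 366, 591 and 961 CPM in DEX mice. JGT03 mouse 3 was the high one of its group, and without it 12 of 14 fell. With the set term the median of the list was 0.27. Mt1, a metallothionein induced by metals and glucocorticoids, had 20.7, 25.2, 36.5, 26.8 and 24.6 CPM in JGT03 400 mg/kg mice and 41.9, 30.2, 53.6 and 313 CPM in DEX mice (log2 -2.04 ± 0.36, adjusted p = 0.000247; -0.64 and adjusted p = 0.0286 without DEX mouse 4). Mt2 and the chitinase-like Chil3 passed only with that mouse (-3.61 and -4.41, with adjusted p = 0.159 and 0.79 without it). Chil3 shares 41.5% and Mt2 58.1% of its 31-base words with other genes. Lcn2 (lipocalin 2), a marker of glucocorticoid and inflammatory induction, did not pass (log2 -0.10 ± 0.23, adjusted p = 0.788). Heat shock genes were mixed, with 2 of 32 higher and 6 lower (median -0.03), a share of falls near the 16.1% of all genes, and 3 higher and 3 lower (median 0.05) without DEX mouse 4. Hsp90aa1, which shares 51.5% of its words with other genes, foremost a pseudogene, fell at -0.92 ± 0.16 and at -0.49 without DEX mouse 4.

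**Figure D3:**
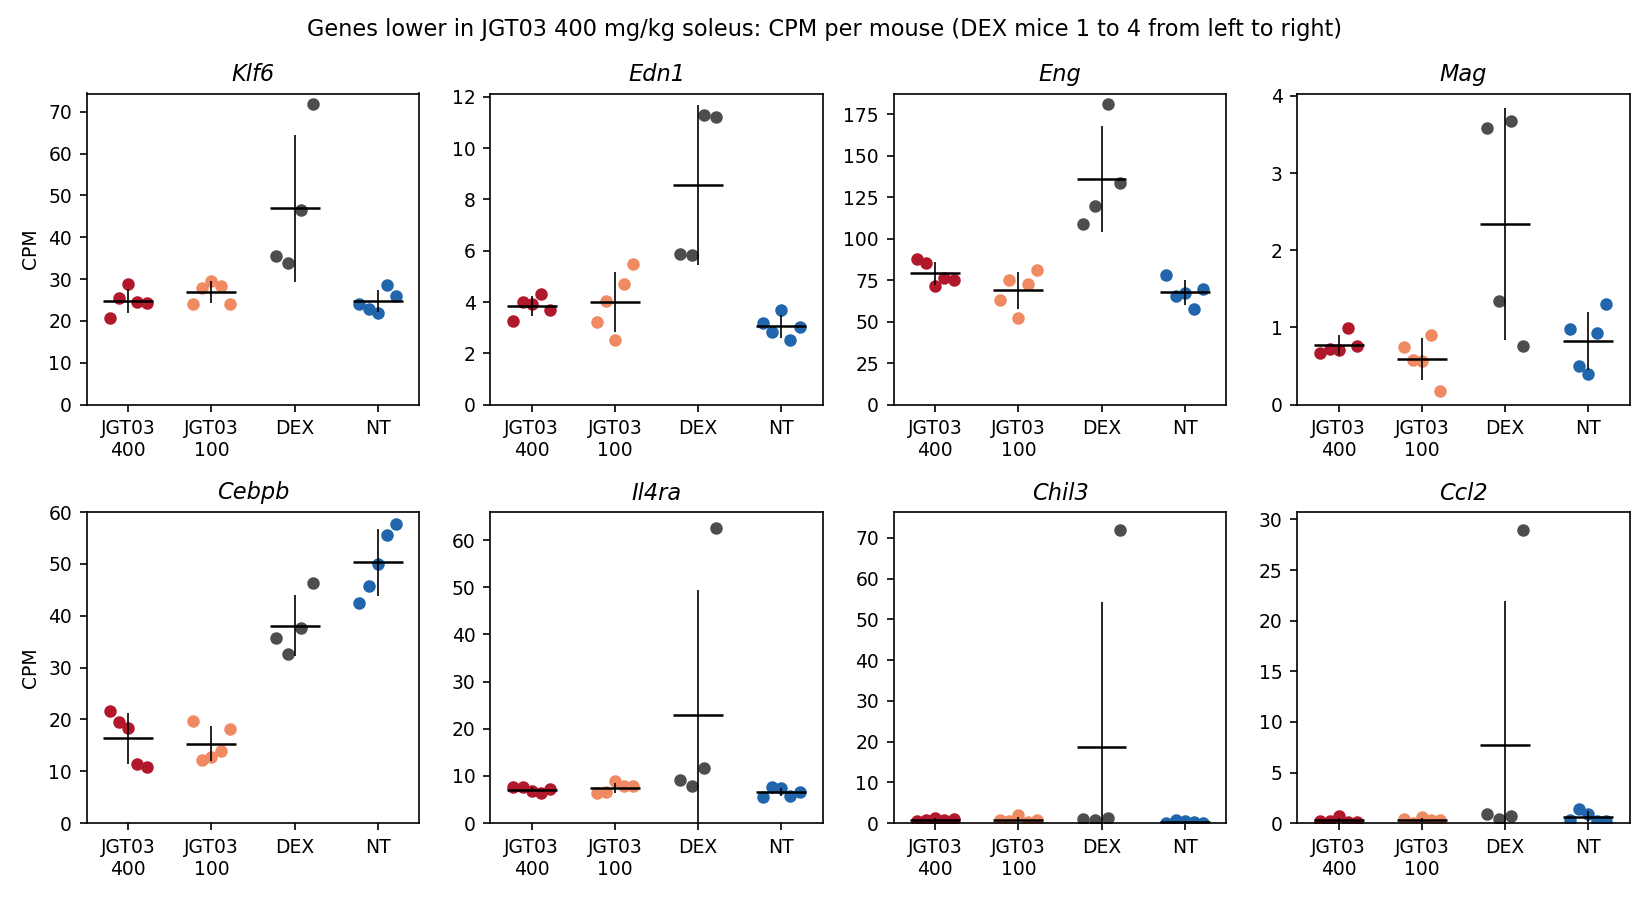
CPM (y axis, from 0) of 8 genes in soleus of JGT03 400 mg/kg, JGT03 100 mg/kg, DEX and non-treated (NT) mice (x axis); points are mice in label order from left to right, lines the mean and bars the SD. Klf6, Edn1 and Eng are higher in all 4 DEX mice than in any JGT03 400 mg/kg mouse, Mag is high in DEX mice 1 and 3, and Il4ra, Chil3 and Ccl2 are high in DEX mouse 4.

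**Figure D4:**
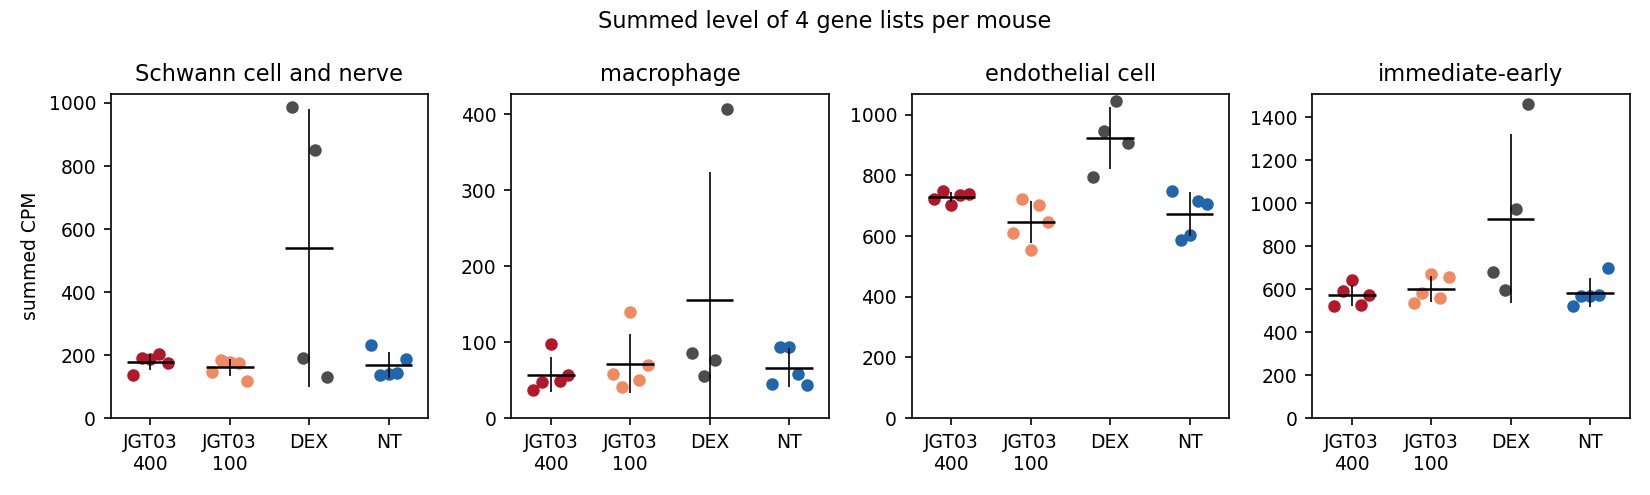
Summed CPM (y axis, from 0) of 4 gene lists in each mouse (points, in label order; line and bar, mean and SD) of soleus in JGT03 400 mg/kg, JGT03 100 mg/kg, DEX and non-treated (NT) groups (x axis). Schwann cell markers are high in DEX mice 1 and 3, macrophage markers in DEX mouse 4, endothelial markers in all 4 DEX mice and immediate-early genes in DEX mice 3 and 4.

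Glucocorticoid targets were called in both directions, with more falls than rises. Of 38 tested 3 rose and 11 fell (median -0.17), 1 and 7 without DEX mouse 4. Over all genes 16.1% fell, and 8.3% without DEX mouse 4, smaller shares than in this list. Cebpd and Cebpb, described above, had the smallest p among the falls. With the set term the median of the list was -0.04. Fkbp5, a direct target that restrains the receptor, had 42.2, 36.3, 39.2, 36.1 and 41.3 CPM in JGT03 400 mg/kg mice and 46.5, 34.5, 35.4 and 44.8 CPM in DEX mice, and did not pass (log2 -0.05 ± 0.11, adjusted p = 0.789). Tsc22d3, a direct target that mediates anti-inflammatory effects, had 46.8, 41.8, 42.3, 48.5 and 46.2 CPM in JGT03 400 mg/kg mice and 39.3, 38.8, 40.3 and 38.3 CPM in DEX mice, and did not pass either (log2 0.20 ± 0.09, adjusted p = 0.0986). Klf15, a glucocorticoid-induced regulator of amino acid breakdown, rose at 0.39 ± 0.12 and was not called without DEX mouse 4 (adjusted p = 0.13). In the clock list 4 of 21 rose and 1 fell, 7 and 2 without DEX mouse 2 and 4 and 2 without JGT03 mouse 2. The repressors Cry2 and Bhlhe41 rose at 0.42 ± 0.09 and 0.46 ± 0.10 without overlap, while Arntl (-0.26), Per2 (-0.14) and Dbp (0.38) did not pass. Sirt1, a deacetylase that resveratrol is thought to act through, fell slightly (log2 -0.28 ± 0.10, adjusted p = 0.0389) and lost its call when any of 6 single libraries was left out.

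The remaining lists gave few calls or mixed ones, and most of their counts moved with single libraries. ATF4 and amino acid stress genes had 0 rises and 9 falls among 25, and 1 rise and 3 falls without DEX mouse 4, 0 and 4 without JGT03 mouse 4, with the amino acid transporter subunit Slc3a2 at -0.57 ± 0.12. Cholesterol synthesis had 1 rise, Fdft1, the squalene synthase (0.49 ± 0.11), and 5 falls among 23, led by its regulator Srebf2 (-0.45 ± 0.11), and the falls were 2, 8 and 3 without DEX mouse 1, mouse 2 and mouse 4. Synthesis of fatty acids and triglycerides had 2 rises and 6 falls among 24, the fallers led by the elongase Elovl5 (-0.57 ± 0.12). It had 0 rises and 5 falls without DEX mouse 4, 2 and 11 without JGT03 mouse 3, 9 falls without DEX mouse 2, and 1 to 3 falls without any 1 of the other 6 libraries. Of 32 antioxidant and detoxification genes 3 rose, led by the quinone reductase Nqo1 (0.65 ± 0.14), and 8 fell, 1 and 5 without DEX mouse 4 and 5 and 12 without DEX mouse 2. Of 21 genes of denervation and the neuromuscular junction 5 rose, led by Ache, the acetylcholinesterase (0.34 ± 0.08), and 3 fell, 2 and 0 without DEX mouse 4 and 3 and 3 without DEX mouse 3 or JGT03 mouse 1, 4 or 5. The sirtuin and PGC-1 list had 7 rises, Esrrg and Tfam leading, and 4 falls among 24 (median 0.07). Without DEX mouse 4 it had 3 and 1 (median -0.02), without DEX mouse 3, 6 and 2, and without JGT03 mouse 1 and mouse 4, 4 and 1 and 5 and 1. Of 14 adipocyte markers Car3, which fibres also express, rose (0.49 ± 0.14; not called without DEX mouse 4) and Thrsp fell (-1.32 ± 0.40; not called without DEX mouse 1 or 3), and 12 fell without JGT03 mouse 3 and 3 without DEX mouse 4. Of 16 cell cycle genes 5 fell, 1 without DEX mouse 4 and 3 without JGT03 mouse 4, while 2 of 29 interferon response genes and 1 of 18 genes of developing fibres fell and none rose. Of markers of other cells, 4 of 12 fell for fibro-adipogenic progenitors, and 3 did without DEX mouse 4. For satellite cells 3 of 10 fell, but without DEX mouse 4 none fell and 1 rose, and 1 and 2 fell without JGT03 mouse 1 and mouse 4. Of 13 tenocyte, 3 lymphocyte and 12 pericyte and smooth muscle markers 1 each fell, and 1 of the last rose, none of them called without DEX mouse 4. None of 4 neutrophil and of 6 erythroid markers passed by edgeR, while without JGT03 mouse 1, 3 erythroid markers were higher and without DEX mouse 2, 2 neutrophil markers lower.

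JGT03 400 mg/kg soleus also differed from soleus of non-treated mice. This comparison and that of DEX with non-treated share their non-treated libraries, and the second shares its DEX libraries with the comparison above, so their values are only given side by side. Non-treated mice 2 and 3 had close summed levels in most lists, and whether they are independent samples was not tested. The calls against non-treated mice and the SDs of that group (n = 5) take them as independent. Against non-treated mice, 1467 genes (9.98%) were higher and 1590 (10.8%) lower in JGT03 400 mg/kg soleus, and 3534 (24%) were higher and 2819 (19.2%) lower in DEX soleus. Lcn2 had 28, 28.3, 23.3, 35.5 and 21.7 CPM in JGT03 400 mg/kg mice and 1.08, 1.87, 1.4, 0.739 and 0.486 CPM in non-treated mice (log2 4.62 ± 0.29; 4.71 ± 0.30 for DEX). The core clock activator Arntl had 1.97, 2.57, 2.92, 1.98 and 2.11 CPM in JGT03 400 mg/kg mice and 25, 20.1, 20.2, 19.1 and 24.4 CPM in non-treated mice (-3.23 ± 0.17; -2.97 ± 0.18 for DEX). The clock outputs Dbp and Ciart and the clock repressor Per2 were higher by 2.21, 2.90 and 2.09 in JGT03 400 mg/kg soleus and by 1.83, 2.57 and 2.23 in DEX soleus. Of 78 ribosomal protein genes 69 were higher in JGT03 400 mg/kg soleus than in non-treated soleus and 73 in DEX soleus, while 1 was higher and 2 were lower in JGT03 400 mg/kg than in DEX soleus.

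For other lists the counts against non-treated mice were as follows. Schwann cell markers were called in 0 of 15 against non-treated in JGT03 400 mg/kg soleus and in 15 of 15, all higher, in DEX soleus. Their summed level was above the non-treated 138 to 233 CPM only in DEX mice 1 and 3, with 191 and 132 CPM in DEX mice 2 and 4. For immediate-early genes the counts were 2 higher and 2 lower in JGT03 400 mg/kg soleus and 21 higher and 0 lower in DEX soleus. There DEX mice 1 and 2 (681 and 597 CPM) lay inside the summed range of non-treated mice, 519 to 696 CPM. For fatty acid uptake and oxidation 11 of 40 were lower than in non-treated mice under JGT03 400 mg/kg and 28 under DEX, while 1 and 3 were higher. Esrrg differed by 0.03 ± 0.11 and -0.65 ± 0.12. In the matrix list 1 of 41 was higher and 17 were lower than in non-treated mice in JGT03 400 mg/kg soleus, and 10 were higher and 3 lower in DEX soleus. Of 27 ubiquitin ligases of atrophy 4 were higher and 16 lower in DEX soleus, and 1 and 10 under JGT03 400 mg/kg. For autophagy and lysosome genes it was 4 and 14 of 37 in DEX soleus, and 7 and 8 under JGT03 400 mg/kg. Proteasome subunits gave 2 and 4 of 33 in DEX soleus, and 11 and 0 under JGT03 400 mg/kg. The largest falls from non-treated mice were Arntl, Pdk4 (-2.95 ± 0.38) and the class II genes Cd74, H2-Ab1 and H2-Aa (-2.45, -2.43 and -2.27). Cebpb was 3.07-fold lower in JGT03 400 mg/kg than in non-treated soleus, where the DEX difference (-0.40 ± 0.21) did not pass. The JGT03 comparison with non-treated mice crosses the break between the sets, and with the set term 548 genes were called.

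The higher and the lower dose of JGT03 differed in few genes, and both doses lie in the same set of libraries. By edgeR 9 genes passed, 7 higher (0.0476% of genes tested) and 2 lower (0.0136%) at 400 than at 100 mg/kg, while 1548 had an unadjusted p under 0.05. DESeq2 called 29, and without JGT03 400 mg/kg mouse 3 edgeR called 135. Pkp4, a plakophilin of cell junctions, had 26.7, 24.4, 23.8, 22.9 and 26 CPM at 400 mg/kg and 16.8, 19.3, 16.5, 18.5 and 18.5 CPM at 100 mg/kg (log2 0.47 ± 0.08, adjusted p = 0.00502). The nuclear long noncoding RNA Neat1 gave 0.51 ± 0.10, the RNA-binding protein gene Tia1 0.33 ± 0.06 and the lysosomal transporter gene Slc46a3 -0.42 ± 0.09, all with adjusted p = 0.0434. The 95% interval of the difference between the doses had a median half-width of 0.23 on the log2 scale over all genes and 0.21 over the 4035 genes called against DEX, and for 89.3% of genes it lay inside -1 to 1. For Esrrg the interval was -0.29 to 0.16, for Slc25a20 -0.05 to 0.29, for Klf6 -0.38 to 0.15 and for Mag -0.54 to 1.24. In each of these genes the interval excludes a difference as large as the estimate against DEX, which has an error of its own.

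At the same dose of 400 mg/kg, the extract with equal parts of the roots and JGT04, with liquorice in excess, differed in 534 genes, of which 287 (1.95%) were higher and 247 (1.68%) lower with JGT03. Both groups are in the same set. Cyp26b1, which degrades retinoic acid, was at 15.4 ± 4.92 CPM with JGT03 (SD, n = 5) and 5.49 ± 1.11 CPM with JGT04 (SD, n = 4; log2 1.48 ± 0.31, adjusted p = 0.00795). Efr3b, a membrane anchor of a lipid kinase, and the insulin receptor substrate Irs1 were higher with JGT03 at 0.79 ± 0.11 and 0.72 ± 0.17, as were the transferrin receptor Tfrc (0.81 ± 0.19) and the guanylate-binding protein gene Gbp6 (0.84 ± 0.24). Lower with JGT03 were the imprinted gene Mest (-2.33 ± 0.49), the detoxifying enzymes Gstt1 (-1.26 ± 0.19) and Adh1 (-1.09 ± 0.16), the Notch-modifying Mfng (-1.14 ± 0.25) and Fam46a (-1.03 ± 0.21). Adh1 had 7.37, 8.56, 12.5, 8.61 and 9.73 CPM with JGT03 and 15.7, 21.4, 21.6 and 20.8 CPM with JGT04. Against DEX, Fam46a passed the same test (-0.92 ± 0.22) and the other 9 did not. The count rested on single libraries: it was 76 without JGT03 mouse 1, 210 without JGT03 mouse 5, 945 without JGT03 mouse 3, and between 183 and 345 when any of JGT04 mice 1 to 4 was left out.

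In the gastrocnemius the same treatment gave fewer calls, and there JGT03 and DEX libraries lie in the same set. Of 15142 genes in the fit of both muscles, 154 (1.02%) were higher and 154 (1.02%) lower in JGT03 400 mg/kg than in DEX gastrocnemius, and leaving out 1 library gave 132 to 268 calls. Skil, a repressor of Smad signalling, had 16.8, 19.7, 15.2, 16.3 and 16.8 CPM in JGT03 400 mg/kg and 11.2, 8.37, 9 and 10.4 CPM in DEX gastrocnemius (log2 0.80 ± 0.11, adjusted p = 9.01e-07), whereas in soleus it was lower (-0.36 ± 0.11; not called without DEX mouse 3). Ppp1r3c, which targets a phosphatase to glycogen, had 70.6, 74, 85.3, 112 and 127 CPM in JGT03 400 mg/kg and 173, 275, 152 and 277 CPM in DEX gastrocnemius (log2 -1.22 ± 0.18, adjusted p = 6.19e-06), and 0.07 in soleus, where it did not pass. The clock repressor Nr1d1 was lower at -0.83 ± 0.12, Banp at -1.07 ± 0.15 and the integrin gene Itgb6 higher at 0.77 ± 0.10, with Zfp503 and Arrdc3 at 0.86 and 0.86. Fkbp5 fell in gastrocnemius (log2 -0.67 ± 0.13, adjusted p = 0.000581). Slc46a3 was higher in both muscles, at 0.50 ± 0.09 in soleus and 0.54 ± 0.11 in gastrocnemius.

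The difference between the muscles was tested directly, with the libraries of both muscles taken as independent. The change with JGT03 400 mg/kg was higher in soleus than in gastrocnemius for 1958 genes (12.9%) and lower for 1369 (9.04%), and 5 genes passed with the set term. Asb12, a subunit of a ubiquitin ligase, changed by 0.58 ± 0.08 in soleus and -0.24 ± 0.07 in gastrocnemius (difference 0.87 ± 0.10, adjusted p = 3.43e-08), and the RNA-binding Rbm38 by 0.48 ± 0.11 and -0.34 ± 0.09 (difference 0.88 ± 0.13). Klhl38 showed 0.61 ± 0.21 in soleus, a call lost when any of 5 single libraries was left out, and -0.24 ± 0.21 in gastrocnemius, where DEX mouse 4 was at 7.48 CPM and the others between 23.3 and 24.2. Of 33 proteasome subunits 22 and of 40 fatty acid genes 22 had the higher change in soleus, and in gastrocnemius itself 1 gene of each list was called lower and none higher. Of 15 Schwann cell markers 14 had the lower change in soleus, and none was called in gastrocnemius. For immediate-early genes the count was 10 of 29.

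**Figure D5:**
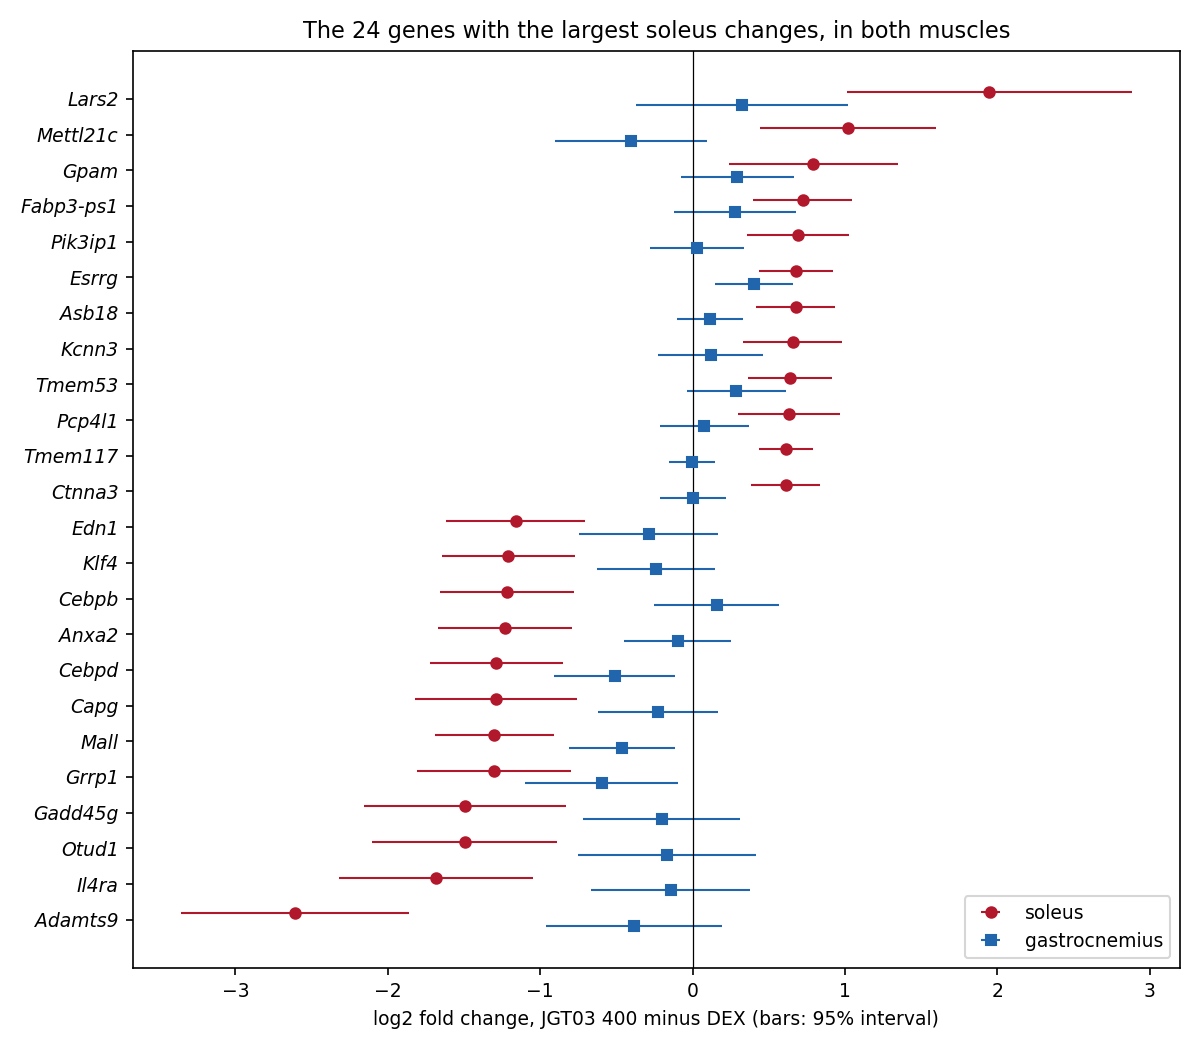
Log2 fold change, JGT03 400 mg/kg minus DEX (x axis, with 95% intervals as bars), of the 24 genes with the largest soleus changes in soleus (circles, soleus fit) and gastrocnemius (squares, fit of both muscles). The genes were chosen for their soleus values; in gastrocnemius they lie between -0.60 and 0.40.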

How the data were processed

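Expected counts per gene were deposited by the authors as one table for gastrocnemius and soleus, not normalized, and 92% of the values are whole. Per the submitters' processing notes, the tools were RSEM (version 1.3.3), STAR (version 2.7.3a), Trim Galore (0.6.5) and, for quality reports, FastQC (0.11.9), with the GRCm38/mm10 build. Per the labels' protocols the library kit was directional. Which strand setting RSEM was given is not given in the sources used here.

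Here the expected counts were rounded and tested with edgeR 4.0.16 (limma 3.58.1, R 4.3.3): filterByExpr, TMM, and 1 quasi-likelihood fit of 41 soleus libraries in 9 groups, without JGT02 100 mg/kg mouse 5 and JGT02 400 mg/kg mouse 1, which did not look like soleus in earlier results. A fit of 83 libraries of both muscles, without gastrocnemius JGT02 100 mg/kg mouse 1 as well, gave the gastrocnemius and interaction values. Standard errors are the log2 fold change divided by the root of the F statistic. P-values were adjusted by Benjamini-Hochberg over all genes of a fit, with a threshold of 0.05. Alternatives tried were no filter on low counts, DESeq2 1.42.0 or its size factors alone, a replicate block, a set term, all libraries, only the groups compared, and leaving out each library. The members and the 40 lists were chosen with earlier results of these data known. Genes named are the 12 largest changes each way against DEX (5 in other comparisons) among genes called, at 5 CPM or more, without overlap and with a name other than that of a predicted gene, up to 2 per list and direction, and a fixed panel of atrophy and glucocorticoid genes. Zfp36, Egr2, Maff and Mbp were added after their values were seen. The share of 31-base words that a gene's transcripts share with other genes, opposite-strand exons and gene positions came from GENCODE vM21 (GRCm38), and promoters from RefSeq (GRCm38.p6). Of 124 named genes, 25 share over 10% of their words and 37 have exons opposite those of another gene. No pair within the soleus JGT03 400 mg/kg group or within the soleus DEX group agreed within sampling noise. Other pairs were not compared. Among these, non-treated soleus mice 2 and 3 had close summed levels in most of the 40 lists. For macrophage markers they had 94.2 and 93.1 CPM, where the other non-treated mice had 43 to 58 CPM. Whether these 2 are independent samples was not tested. Some genes that the rule names are not reported here. The scripts were tested on simulated data.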

Additional observations from a re-analysis of the deposited data

Results flagged for a closer look

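Values in CPM of one library that stood far from the other libraries of its soleus group, by Dixon's criterion at the 95% level, were found in 43 of 248 combinations of a named gene and a group. Chance gives about 1 in 20 for independent, normally distributed values. The named genes are not independent draws, since many were chosen for differences in which DEX mouse 4 took part, so the count is not compared with that rate. Of the 43, 11 were in JGT03 mouse 3. It was the high library for Adamts9 (2.32), Klf4 (16.6), Angptl4 (5.63), Igf1 (22.7), Ccl2 (0.748), Cd74 (12.3), H2-Ab1 (4.13), H2-Aa (4.06) and Mest (6.41) and the low one for Hadhb (572) and Myh2 (4269). In DEX mouse 4 there were 22. It was the high library for Adamts9 (26.8), Il4ra (62.6), Gadd45g (31.3), Grrp1 (21.2), Capg (46.1), Cebpd (23.4), Anxa2 (154), Angptl4 (16.9), Hsp90aa1 (262), Mt1 (313), Mt2 (258), Chil3 (71.9), Lcn2 (52.9), Ccl2 (29), Fcgr1 (6.76), Runx1 (35.2), Cd74 (54.8), H2-Ab1 (24.4), H2-Aa (17.4), Itgb6 (37.1) and Slc3a2 (53.1), and the low one for Rbm38 (91.5). In the other libraries, the value was high for Klf4 in DEX mouse 3 (55.5), Sdhd in JGT03 mouse 4 (215), Hsp90aa1 in JGT03 mouse 2 (95.5), Mag in JGT03 mouse 4 (0.991), Tfrc in JGT03 mouse 1 (134), Mest in DEX mouse 1 (7.31) and Skil in JGT03 mouse 1 (9.62) and low for Myh7 in JGT03 mouse 4 (4404), Egr2 in JGT03 mouse 1 (0.916) and Gldn in JGT03 mouse 1 (0.811). No library was left out of the soleus comparison for this.

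The change with JGT03 400 mg/kg differed between soleus and gastrocnemius, by the interaction test of edgeR, in 3327 of 15142 genes and in 70 of the genes named here. Many of the named genes were chosen for their soleus change or for this difference itself. Their count can therefore not be set against that of all genes. The values below are log2 differences, soleus change minus gastrocnemius change. They were above 0 for Lars2 (1.68), Cyp26b1 (1.66), Mettl21c (1.48), Ppp1r3c (1.35), Nr1d1 (0.91), Klhl38 (0.90), Rbm38 (0.88), Irs1 (0.88), Asb12 (0.87), Efr3b (0.80), Hspb6 (0.75), Ldb3 (0.75), Pik3ip1 (0.72), Fkbp5 (0.69), Myot (0.67), Tmem117 (0.67), Ctnna3 (0.67), Gyg (0.65), Gys1 (0.65), Banp (0.64), Bnip3 (0.64), Asb18 (0.62), Pcp4l1 (0.61), Casq2 (0.60), Kcnn3 (0.60), Slc25a20 (0.57), Trim55 (0.57), Nqo1 (0.57), Psmb7 (0.56), Sdhc (0.52), Fdft1 (0.51), Hadhb (0.47), Wipi1 (0.45), Psmd2 (0.40), Sdhd (0.40), Tfam (0.37), Mtor (0.37), Foxo3 (0.33) and Nedd4 (0.26). They were below 0 for Ccl2 (-3.42), Spp1 (-3.16), Fcgr1 (-2.88), Runx1 (-2.32), Adamts9 (-2.16), Mbp (-2.10), Mt2 (-2.04), Mag (-2.03), Thrsp (-1.74), Il4ra (-1.47), Gldn (-1.40), Cebpb (-1.32), Otud1 (-1.27), Mt1 (-1.25), Gadd45g (-1.23), Cpt1a (-1.13), Skil (-1.11), Fam46a (-1.10), Anxa2 (-1.07), Capg (-1.003), Klf4 (-0.92), Mfng (-0.91), Edn1 (-0.81), Klf6 (-0.79), Mall (-0.78), Arrdc3 (-0.71), Itgb6 (-0.54), Elovl5 (-0.49), Sirt1 (-0.48), Slc3a2 (-0.41) and Foxo1 (-0.34). Without soleus DEX mouse 4, 2354 genes differed between the muscles, and 5 with the set term.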

How the results depend on the processing

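The count of genes called between JGT03 400 mg/kg and DEX soleus was within 1.5 times of 4035 with DESeq2 (4127), DESeq2 size factors (4069) and no filter on low counts (3468). It was 453 with the JGT02 libraries that do not resemble soleus kept in the fit, 436 with only the groups compared, 898 with these and without DEX mouse 4 (chosen after seeing the data) and 0 with the set term, with 1268 genes at an unadjusted p under 0.05. Leaving out 1 library gave 2282 (without DEX mouse 4) to 4498 genes.

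Replicate numbers are shared between groups but name different mice, and same-numbered libraries did not deviate together (r between -0.11 and 0.08 over 4 numbers), so they do not pair the samples. With a replicate block the count was 3854 against DEX and 2 between the doses, and 3 named genes lost and 1 gained its call.

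Between the doses the count of 9 was 2 with no filter, 0 with all libraries kept, 0 with only the groups compared, 29 with DESeq2 and 0 to 135 when 1 library was left out (0 without JGT03 100 mg/kg mouse 1, 135 without JGT03 400 mg/kg mouse 3). Without JGT03 100 mg/kg mouse 3 or 5 it was 2 and 1, and without JGT03 400 mg/kg mouse 1, 2, 4 or 5 it was 1, 1, 2 and 1. Against JGT04 the count of 534 was 2 with all libraries kept, 186 with only the groups compared, and 76 to 945 when 1 library was left out. Against non-treated mice the 3057 genes of JGT03 400 mg/kg became 548 with the set term and 1000 with all libraries kept, and the 6353 of DEX became 3079 with all libraries kept and 4129 with only the groups compared. In gastrocnemius the 308 genes became 157 with no filter, 32 with all libraries kept, 590 with only the groups compared, and 132 (without DEX mouse 2) to 268 when 1 library was left out. It was 185 and 180 without DEX mouse 3 and 4, and 186, 139 and 175 without JGT03 mouse 1, 2 and 4. The 3327 genes that differed between the muscles became 5 with the set term, 200 with all libraries kept and 1184 with only the groups compared.

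Of 124 named genes 94 were called, and all 94 lost their call with the set term, 68 of 93 with only the groups compared, 66 with all libraries kept, 22 without DEX mouse 4, 12 without DEX mouse 3 and at most 9 without any other library. Among the genes called against DEX, signs changed with the set term for Igf1 (0.19), Gldn (0.20) and Pkp4 (0.023, against -0.26 without the term). They changed without DEX mouse 4 for Cd74, H2-Ab1 and H2-Aa, to 0.18, 0.45 and 0.55, and to 0.18, 0.44 and 0.54 when only the groups compared were also kept, while leaving out JGT03 mouse 3 gave the lowest values, -2.85, -2.58 and -2.26. The cause of these changes was not tested. Depth was at least 18751732 counts per library.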
